A study of Homo sapiens with 24 samples.

Results

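BCMA (TNFRSF17), TACI (TNFRSF13B) and the BAFF receptor (TNFRSF13C), together with their ligands APRIL (TNFSF13) and BAFF (TNFSF13B), were followed through IRF4 knockdown in human multiple myeloma cell lines. These 5 genes were chosen by symbol as 1 receptor and ligand family out of 25342 genes in the deposited table. Earlier results of these data were known when they were chosen. All 5 passed the filter of at least 1 TPM in at least 3 libraries, so none was lost to it. TNFSF13B reached 1 TPM in siIRF4 libraries only, so it passed through the group in which it was higher.

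RNA-seq had been done on 24 libraries, 3 for each of 8 groups, from 4 established myeloma lines named MM1R, MM1S, KMS-12-BM and KMS-12-PE. The siIRF4 groups had been electroporated with a commercial pool of siRNAs against IRF4 and were labelled 48 hours. The CTRL groups were labelled DMSO and 0 hours, and the labels name no control siRNA. The siRNA, the electroporation, DMSO and the time therefore differ together between the groups and cannot be told apart. All 8 groups were grown in RPMI medium with fetal bovine serum. Each line is a single established line. By name MM1R goes with MM1S and KMS-12-BM with KMS-12-PE, so the 4 lines need not be 4 independent donors. The labels do not say whether replicates came from separate cultures, and p-values then reflect only how far these libraries spread, which may be technical. In bulk RNA, fewer cells expressing a gene and less RNA per cell cannot be told apart.

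BCMA, TACI and the BAFF receptor are small members of the TNF receptor superfamily found on B-lineage cells. APRIL binds BCMA and TACI, BAFF binds all 3 receptors with the BAFF receptor as its own, and the receptors recruit TRAF adapters that control NIK and NF-kB. BCMA is best known on plasma cells, where it supports survival, and is a target of antibodies and engineered T cells in myeloma, while gamma-secretase can cut it from the cell surface. IRF4 is a transcription factor that plasma cells and myeloma cells depend on, and factors of its family bind DNA with GAAA boxes.

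The ligands rose on average, and stretches before their start sites are shown for that reason. RefSeq windows (250 bases before to 50 bases after a start, build GRCh38.p14) were on hand for 3 of the 5 genes, TNFSF13B and TNFSF13 with 2 windows each and TNFRSF13B with 1. The files themselves were made on hg19, so these positions belong to the sequences only. A pair of GAAA boxes with a 2-base gap, GAAANNGAAA on either strand, was in 3.57% of all 35116 windows of that length and in both overlapping TNFSF13B windows, as one and the same site. Its first base lies at +19 from 1 start and at -71 from the other. The letters GGAANNGAAA, an ETS and IRF composite, were in 2.82% of all windows, and the AP-1 letters TGANTCA in 7.71%; neither was in the 5 windows of these genes. A match to letters is a description and not a binding site. The capitals mark the GAAA pair, and the longer stretches, in which none of the 3 motifs was found, have no capitals.
TNFSF13B pair of GAAA boxes, chr13:108269637-108269666, + strand: tacaaaaactGAAAGTGAAAtgaggaagac
TNFSF13B, 250 bases before a start, chr13:108269379-108269628, + strand: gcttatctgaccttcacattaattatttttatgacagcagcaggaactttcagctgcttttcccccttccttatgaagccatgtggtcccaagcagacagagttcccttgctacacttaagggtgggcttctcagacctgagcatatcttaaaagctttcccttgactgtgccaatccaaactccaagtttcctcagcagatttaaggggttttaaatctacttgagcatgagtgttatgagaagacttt
TNFSF13, 250 bases before a start, chr17:7558032-7558281, + strand: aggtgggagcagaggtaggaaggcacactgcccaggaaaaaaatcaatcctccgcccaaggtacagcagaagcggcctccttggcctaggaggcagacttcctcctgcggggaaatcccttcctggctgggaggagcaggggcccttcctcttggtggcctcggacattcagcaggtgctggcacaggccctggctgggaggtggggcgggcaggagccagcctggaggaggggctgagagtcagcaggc

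Levels are given in TPM (reads per transcript length, scaled to the same total in each library), which can be set side by side between genes. Changes are differences of log2(TPM + 1), siIRF4 minus CTRL, which understate the change of low genes. A gene was called at a limma adjusted p under 0.05 over 15113 genes tested in a comparison. Whole reads could be recovered from the TPM values, and gave libraries of 17299851 to 27382497 reads. The plasma cell markers SDC1, CD38, PRDM1, XBP1, SLAMF7 and MZB1 had group means of at least 1 TPM in all 8 groups, although SDC1 was only 6.05 TPM in KMS-12-BM CTRL. On the log2 scale SDC1 was 6.7 and 6.3 lower in KMS-12-BM CTRL than in MM1R and MM1S CTRL. SLAMF7 was 7.8 and 7.6 lower, so a mean of 1 TPM is a low bar for these genes. Plasma cell markers also changed in siIRF4. PRDM1 was called lower in each line (-0.40, -0.45, -0.47 and -0.85, MM1R first and KMS-12-PE last), and so was XBP1 (-0.070 to -0.43). SLAMF7 was called lower in each line but KMS-12-BM (-0.50, -0.86 and -1.12). SDC1 was called lower in MM1R (-0.38), and CD38 in MM1S and KMS-12-BM (-0.30 and -0.67). MZB1 was called higher in MM1R (0.20). Of 4 B cell markers MS4A1 had group means of at most 0.818 TPM, but their sum moved with the groups. It was 20.2 to 24 TPM in MM1R CTRL and 28.2 to 33.6 TPM in siIRF4, and in MM1S 26.2 to 27.9 TPM against 35.6 to 38.3 TPM. In KMS-12-BM it was 11.7 to 12.8 TPM against 10.3 to 11 TPM, and in KMS-12-PE at most 0.431 TPM. CR2 was called higher in both MM1 lines (0.43 and 0.44) and lower in KMS-12-PE (-0.32), and PAX5 lower in KMS-12-BM (-0.24). Markers of other cells moved with the groups too. In KMS-12-PE 5 stromal genes summed to 56.2 to 85.6 TPM in CTRL and 19.1 to 26.7 TPM in siIRF4, and all 5 were called lower. Their sum in MM1S was 55.5 to 122.2 TPM in CTRL and 61.8 to 81.8 TPM in siIRF4. MM1R and KMS-12-BM libraries had a stromal sum of at most 1.5 TPM. For KMS-12-PE the sum of 8 myeloid genes was 150.9 to 187.6 TPM in CTRL and 39.1 to 54.9 TPM in siIRF4. S100A8, S100A9 and CD68 were called lower in this line (-1.60, -2.02 and -0.38). CD14, LYZ, CSF1R and FCN1 had group means of at most 0.699 TPM in any group. In MM1R that myeloid sum went the other way, 49.5 to 57.7 TPM in CTRL and 126.9 to 135.5 TPM in siIRF4. S100A9 and CD68 were called higher in MM1R (1.90 and 0.27). The myeloid sum in MM1S was 128.1 to 198.4 TPM in CTRL and 89.5 to 194.9 TPM in siIRF4. A set of 6 T and NK cell genes summed to 17.7 to 20.5 TPM in KMS-12-PE CTRL and 36.2 to 41.5 TPM in siIRF4. In MM1S the T and NK cell sum was 5.85 to 7.21 TPM in CTRL and 9.09 to 14 TPM in siIRF4. The part of these markers in the results was not tested. One library, KMS-12-BM siIRF4 replicate 1, stood apart in genes typical of the MM1 lines, as described with TNFRSF13B.

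IRF4 itself, the targeted gene, was lower in every siIRF4 library than in any CTRL library of its line. In MM1R it was 376.4, 365.3 and 399.3 TPM in CTRL and 259.9, 299.4 and 313.6 TPM in siIRF4. In MM1S it was 297.8, 267.5 and 285.0 TPM against 154.3, 130.4 and 136.8 TPM. The knockdown left much of the transcript in both of these lines, 76.5% of the mean CTRL level in MM1R and 49.6% in MM1S. In KMS-12-BM IRF4 was 357.2, 361.3 and 364.0 TPM in CTRL and 205.3, 220.6 and 241.1 TPM in siIRF4. In KMS-12-PE it was 338.5, 325.6 and 318.1 TPM against 154.1, 151.9 and 160.0 TPM. These are 61.6% and 47.4% of the CTRL means, so the knockdown was partial in all 4 lines and smallest in MM1R. On the log2 scale IRF4 fell by 0.39, 1.01, 0.70 and 1.07, taking the lines in the order above (limma, adjusted p = 5.85e-05, 1.11e-10, 1.78e-07 and 5.61e-11).

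BCMA had the largest change of the 5 genes in each line on the log2(TPM + 1) scale. TNFRSF17 transcript fell in all 4 lines after siIRF4, from a loss of 38.6% in MM1R to a loss of 90.0% in KMS-12-PE. TACI fell in KMS-12-PE, where it was already near 0 and the median of other MM1-line genes moved with it. As a ratio of TPM its fall there was larger than that of TNFRSF17, with 1.35% of its CTRL mean left. TACI in MM1S, at a CTRL mean of 202.6 TPM, was lower by 22.7%, which only some of the fits called. The BAFF receptor was not called in any line. The ligands went the other way: TNFSF13 rose in 3 lines and TNFSF13B in MM1S, by small amounts at low levels. Of the 5 genes, 2 were called in MM1R and 3 in MM1S, and the KMS-12 lines had 1 (KMS-12-BM) and 3 (KMS-12-PE); taking the lines in this order, 46.2%, 50.3%, 17.5% and 38.1% of all genes were called in either direction. On the average of the 4 lines 4 of 5 were called, 2 lower and 2 higher, against 59.6% of all genes. A call by itself was therefore common in these data. By size of fall on the log2(TPM + 1) scale TNFRSF17 ranked 350 in MM1R, 74 in MM1S and 1 in both KMS-12 lines among 15113 genes. These ranks belong to that scale, which shrinks the change of low genes. As a ratio of mean TPM, AMPD1, an AMP deaminase gene, went down further than TNFRSF17 in both KMS-12 lines, from 16.7 to 1.26 TPM in KMS-12-PE and from 3.24 to 0.575 TPM in KMS-12-BM.

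**Figure D1:**
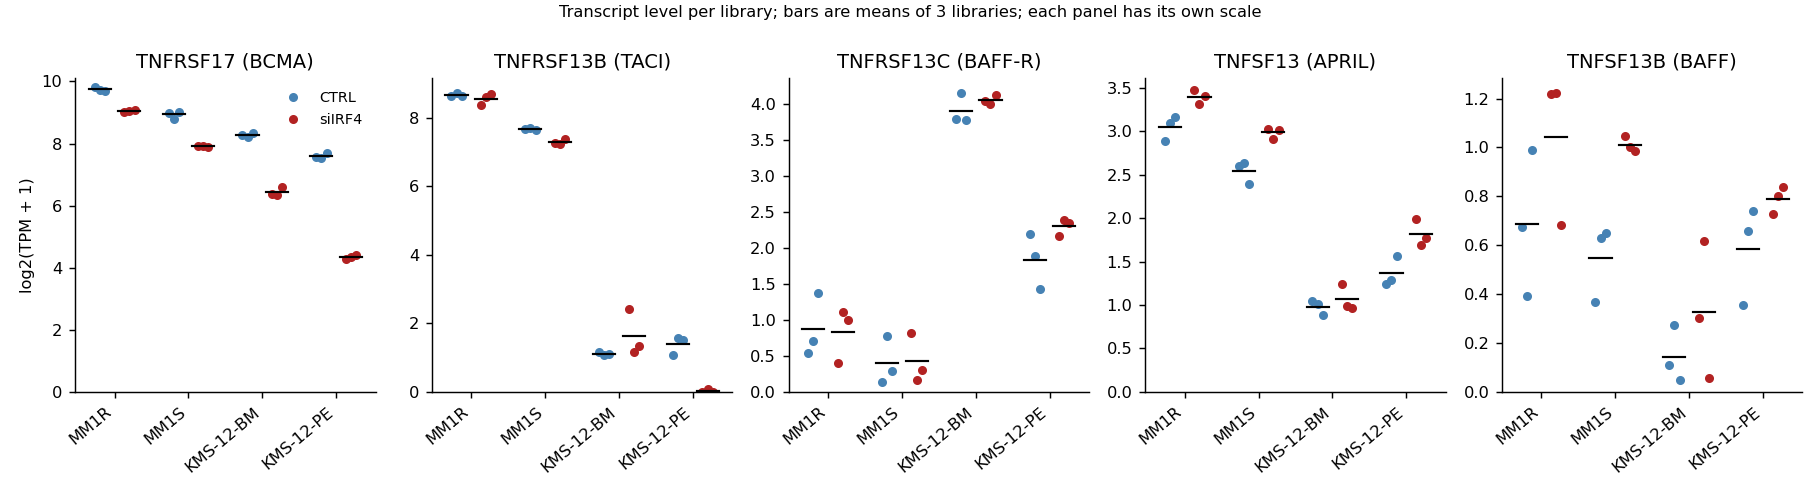
Level of each of the 5 genes in each of 24 libraries as log2(TPM + 1) on the vertical axis, by line on the horizontal axis, with CTRL in blue, siIRF4 in red and a bar at the mean of 3 libraries; each panel has its own scale. TNFRSF17 siIRF4 points lie below the CTRL points in all 4 lines, whereas the TNFSF13 points lie above them in 3.

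In MM1R, TNFRSF17 was 902.7, 836.7 and 832.2 TPM in CTRL and 511.7, 529.0 and 537.4 TPM in siIRF4. In MM1S it was 510.5, 444.2 and 515.0 TPM against 239.5, 240.8 and 237.1 TPM. The siIRF4 libraries of both lines lay close together and well below every CTRL library of the line. In KMS-12-BM it was 308.2, 294.0 and 323.3 TPM in CTRL and 81.7, 80.0 and 95.7 TPM in siIRF4. In KMS-12-PE it was 189.6, 182.7 and 208.1 TPM against 18.2, 19.5 and 20.3 TPM. The groups did not overlap in any of the 4 lines. Means went from 857.2 ± 39.5 to 526.1 ± 13.1 TPM in MM1R (SD, n = 3) and from 489.9 ± 39.7 to 239.1 ± 1.88 TPM in MM1S. KMS-12-BM means were 308.5 ± 14.7 and 85.8 ± 8.64 TPM, and KMS-12-PE means 193.4 ± 13.1 and 19.3 ± 1.04 TPM.

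The log2 change of TNFRSF17 was -0.70, -1.03, -1.84 and -3.26 in that order, each with a standard error of 0.065 (limma, adjusted p = 1.65e-08, 5.87e-11, 6.08e-14 and 6.29e-19). The transcript therefore had 61.4%, 48.8%, 27.8% and 10.0% of its CTRL mean left. On the average of 4 lines it fell by 1.71 ± 0.032 (SE; limma, adjusted p = 2.41e-19), the second largest fall among all genes on this scale, and it was lower in 4 of 4 lines. An exact two-sided permutation test within lines gave p = 1.25e-05, the smallest that 160000 arrangements can give. Within a single line 3 against 3 libraries cannot go below 0.1, and each line gave an exact permutation p of 0.1.

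The size of the fall differed between lines. It was larger in the KMS-12 lines than in the MM1 lines by 1.68 ± 0.065 on the log2 scale (SE; limma, adjusted p = 1.10e-13), and it was the only member called in this comparison on log2(TPM + 1), in which 44.9% of all genes were called. For TNFRSF13B the call there depended on the setting: the effect in the MM1 lines minus that in the KMS-12 lines was 0.17 and not called, but it was called at 1.30 with a pseudocount of 0.1, at 1.75 with voom on recovered reads (adjusted p = 0.00353 and 0.0281) and at 0.37 without KMS-12-BM siIRF4 replicate 1 (limma, adjusted p = 0.00512). KMS-12-PE fell further than KMS-12-BM by 1.42 ± 0.092 (limma, adjusted p = 6.36e-10). For MM1R against MM1S the difference was 0.33 ± 0.092, and it missed the threshold (limma, adjusted p = 0.0651). No member was called between those lines by limma, where 2.47% of all genes were. TNFRSF17 had an unadjusted limma p of 0.00192 there, and with voom on recovered reads it was called at an adjusted p of 0.00635. A comparison added after the values were seen, MM1S against KMS-12-BM, gave a difference of 0.81 ± 0.092 (limma, adjusted p = 7.58e-07). In every pair of lines but this one, the line with less of its IRF4 transcript left also had less of its TNFRSF17 transcript left. A link between them was not tested. MM1S kept the smaller part of its IRF4 transcript, 49.6% against 61.6% in KMS-12-BM, and the larger part of its TNFRSF17 transcript, 48.8% against 27.8%. The IRF4 fall was larger in MM1S by 0.31 ± 0.094 (SE; limma, adjusted p = 0.0143).

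**Figure D2:**
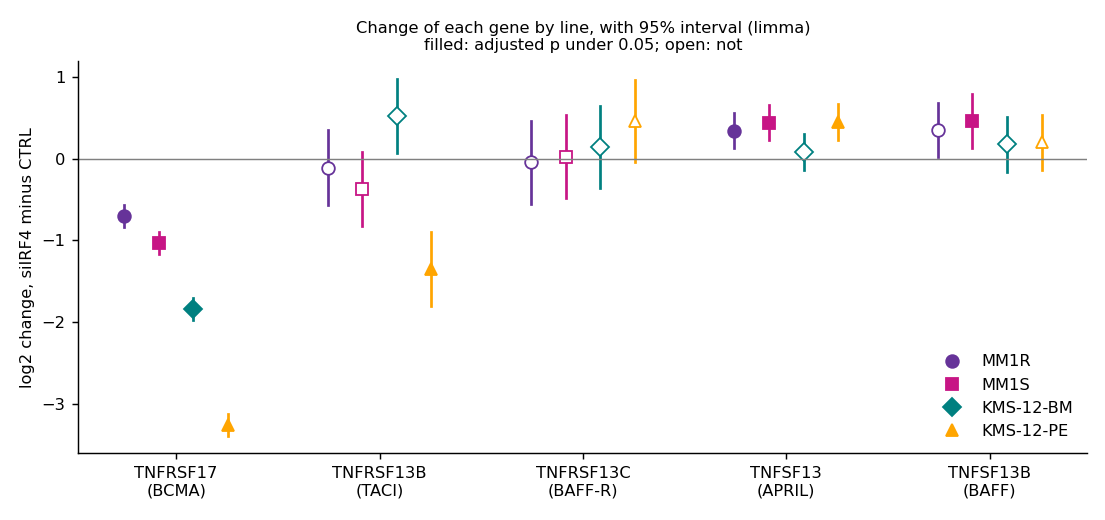
Change of each gene in each line on the vertical axis as log2 siIRF4 minus CTRL, with 95% limma intervals, and the 5 genes on the horizontal axis; symbols and colours mark the lines, filled symbols were called and open symbols were not. TNFRSF17 runs from -0.70 in MM1R to -3.26 in KMS-12-PE, while both ligands lie between 0.086 and 0.46 in every line.

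The CTRL level of TNFRSF17 ran in the opposite order to the fall. Means descended from MM1R (857.2 TPM) through MM1S (489.9 TPM) and KMS-12-BM (308.5 TPM) to KMS-12-PE (193.4 TPM), and all 6 pairs of lines were called. Neighbours in this order differed by 0.81 (MM1R and MM1S), 0.66 (MM1S and KMS-12-BM) and 0.67 (KMS-12-BM and KMS-12-PE) on the log2 scale, with limma adjusted p = 1.24e-09, 3.33e-09 and 3.48e-09. The means kept this order in siIRF4. The spread between the highest and the lowest line went from 857.2 against 193.4 TPM in CTRL to 526.1 against 19.3 TPM in siIRF4.

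TACI was a gene of the MM1 lines. TNFRSF13B was 397.8, 420.1 and 401.5 TPM in MM1R CTRL and 329.1, 391.1 and 418.3 TPM in MM1R siIRF4, and these groups overlapped. The change there was -0.11 with a 95% interval of -0.56 to 0.35 (limma, adjusted p = 0.743). In MM1S it was 201.6, 207.1 and 199.3 TPM in CTRL and 152.2, 150.7 and 166.8 TPM in siIRF4. Every siIRF4 library of MM1S was lower than every CTRL library, by 22.7% in the mean, but the change of -0.37 (interval -0.83 to 0.085) was not called in the fit that shares its spread with the KMS-12 libraries (limma, adjusted p = 0.171). It was called in a fit of the MM1S libraries alone (limma, adjusted p = 4.48e-05) and with voom on recovered reads (adjusted p = 1.4e-04). A fit of the 12 MM1 libraries, added after the values were seen, also called it (limma, adjusted p = 6.86e-04).

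In the KMS-12 lines TNFRSF13B was near the limit of detection. KMS-12-BM had 1.25, 1.09 and 1.15 TPM in CTRL (16, 16 and 17 reads) and 4.37, 1.23 and 1.53 TPM in siIRF4 (67, 14 and 20 reads). The groups overlapped, and siIRF4 replicate 1 was far above the other 5 libraries. The change was 0.53 ± 0.22 (SE; limma, adjusted p = 0.106), and 0.13 without that library (adjusted p = 0.507), but it was called at 0.77 without siIRF4 replicate 2 (limma, adjusted p = 0.0186). KMS-12-PE had 1.10, 1.94 and 1.87 TPM in CTRL (14, 24 and 24 reads) and 0, 0.066 and 0 TPM in siIRF4 (0, 1 and 0 reads). These groups did not overlap, and the change of -1.35 ± 0.22 was called (SE; limma, adjusted p = 8.58e-05). The ratio of reads, siIRF4 over CTRL and scaled to depth, was 0.0157 with a 95% interval of 3.91e-04 to 0.0907 that covers counting error only.

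By their median, other genes of the MM1 lines moved with TNFRSF13B in the KMS-12 libraries. Genes with at least 100 TPM in both MM1 lines in CTRL and under 1% of that in a KMS-12 line in CTRL numbered 23 for KMS-12-BM and 14 for KMS-12-PE. TNFRSF13B meets the same rule, so its closeness to these genes in CTRL is partly fixed by how they were chosen. In KMS-12-BM siIRF4 replicate 1 TNFRSF13B stood at 1.44% of its MM1 CTRL level and the median of the other genes at 1.24%. In the other 5 KMS-12-BM libraries TNFRSF13B stood at 0.358% to 0.502%, beside medians of 0.380% to 0.510%. In KMS-12-PE, TNFRSF13B was 0.363%, 0.638% and 0.613% in CTRL beside medians of 0.627%, 0.653% and 0.875%, and 0%, 0.0218% and 0% in siIRF4 beside medians of 0.0830%, 0.0975% and 0.0909%. The highest of the other genes in KMS-12-PE stood at 0.871%, 1.02% and 1.27% in CTRL. In siIRF4 the highest stood at 1.18%, 0.924% and 0.784%, so the medians do not hold for every gene. ITGB7, an integrin subunit at 14930 to 15570 TPM in MM1R CTRL, was 186.0 TPM in KMS-12-BM siIRF4 replicate 1 and 64.1 and 58.1 TPM in the other 2 siIRF4 libraries. The median shares of the MM1 level would amount to 4.84 of the 193.4 TPM of TNFRSF17 in KMS-12-PE CTRL and 0.609 of the 19.3 TPM in siIRF4. For TNFRSF13B they would amount to 2.19 TPM in KMS-12-PE CTRL and 0.276 TPM in siIRF4, where 1.64 and 0.022 TPM were measured. For KMS-12-BM CTRL and siIRF4 they would amount to 1.3 and 2.12 TPM of TNFRSF13B, where 1.16 and 2.38 TPM were measured. How these shares arose was not tested.

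**Figure D3:**
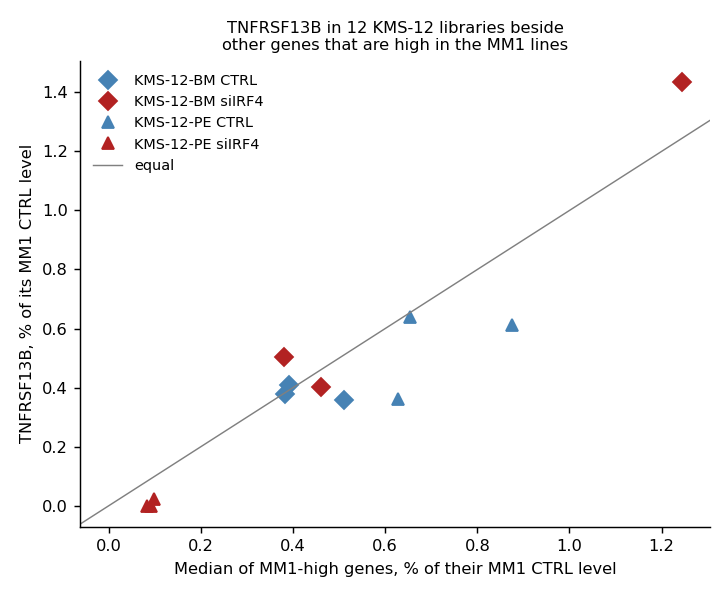
TNFRSF13B in each of 12 KMS-12 libraries as percent of its mean MM1 CTRL level (vertical axis) against the median of other genes that are high in the MM1 lines, as percent of theirs (horizontal axis); diamonds are KMS-12-BM, triangles KMS-12-PE, blue CTRL, red siIRF4, and the line marks equal values. KMS-12-BM siIRF4 replicate 1 lies alone at 1.44% and 1.24%, and the KMS-12-PE siIRF4 libraries lie next to 0.

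On average TNFRSF13B was called lower by 0.33 (limma, adjusted p = 0.0151), with 3 of 4 lines in that direction and an exact permutation p of 0.0766 within lines. That call rested on KMS-12-PE: without this line, an average added after the values were seen, the change was 0.017 (limma, adjusted p = 0.922). The effect differed between KMS-12-BM and KMS-12-PE by 1.88 ± 0.31 (SE; limma, adjusted p = 3.06e-04), and by 1.49 without KMS-12-BM siIRF4 replicate 1. TNFRSF17 and TNFRSF13B were the 2 of 5 genes called in this comparison, against 23.0% of all genes. They were also the 2 of 5 called between MM1S and KMS-12-BM, against 33.5% of all genes, with a TNFRSF13B difference of -0.90 ± 0.31 (limma, adjusted p = 0.0310) that became -0.51 without that library (limma, adjusted p = 0.0114). The TNFRSF13B call between MM1S and KMS-12-BM was lost with a pseudocount of 0.1 (adjusted p = 0.0734), with voom (0.0921) and without any one of 6 other libraries (limma, adjusted p up to 0.0599).

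In CTRL, TNFRSF13B stood at 406.5 ± 11.9 TPM in MM1R, 202.6 ± 3.99 TPM in MM1S, 1.64 ± 0.46 TPM in KMS-12-PE and 1.16 ± 0.078 TPM in KMS-12-BM (SD, n = 3). MM1R was above MM1S by 1.0 on the log2 scale (limma, adjusted p = 7.30e-04). The KMS-12 lines were 6.29 to 7.56 below the MM1 lines on that scale, all 4 pairs called. KMS-12-BM and KMS-12-PE did not differ beyond their spread (limma, adjusted p = 0.267).

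The BAFF receptor was highest in KMS-12-BM. TNFRSF13C was 12.9, 16.8 and 12.7 TPM in KMS-12-BM CTRL and 15.6, 15.01 and 16.5 TPM in siIRF4, and these groups overlapped. In KMS-12-PE it was 3.55, 2.71 and 1.70 TPM in CTRL and 3.50, 4.25 and 4.08 TPM in siIRF4, again with an overlap. The largest change, 0.47 in KMS-12-PE, had a 95% interval of -0.040 to 0.97 (limma, adjusted p = 0.143). The MM1 lines had few reads: MM1R had 4, 5 and 13 reads in CTRL and 3, 10 and 11 in siIRF4, and MM1S had 1, 5 and 2 against 6, 1 and 2. The average change of 0.15 had an interval of -0.10 to 0.40 (limma, adjusted p = 0.299). TNFRSF13C was called in 0 of 4 lines by limma and in 0 by voom on recovered reads, and in 0 lines was its unadjusted limma p under 0.05.

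CTRL levels of TNFRSF13C were 14.2 ± 2.32 TPM in KMS-12-BM, 2.65 ± 0.93 TPM in KMS-12-PE, 0.897 ± 0.61 TPM in MM1R and 0.343 ± 0.32 TPM in MM1S (SD, n = 3). KMS-12-BM was above KMS-12-PE by 2.07 (limma, adjusted p = 1.76e-07) and KMS-12-PE above MM1R by 0.96 (limma, adjusted p = 0.00120). MM1R and MM1S did not differ beyond their spread (limma, adjusted p = 0.0998). The level of this receptor thus ordered the lines differently from TNFRSF17 and TNFRSF13B.

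With TPM per length, the 3 receptors can be added. Their sum went from 1264 to 906.4 TPM in MM1R, 692.9 to 396.1 TPM in MM1S, 323.8 to 103.8 TPM in KMS-12-BM and 197.7 to 23.3 TPM in KMS-12-PE. TNFRSF17 made up 67.8 ± 1.47% of the sum in MM1R CTRL and 58.1 ± 2.42% in siIRF4 (SD, n = 3). In MM1S it was 70.6 ± 2.17% against 60.4 ± 1.51%, and in KMS-12-BM 95.3 ± 0.87% against 82.6 ± 1.95%. KMS-12-PE had 97.8 ± 0.44% against 83.0 ± 1.02%. The share fell by 11.8 percentage points on average over lines and was lower in 4 of 4 lines (exact two-sided permutation within lines, p = 1.25e-05, the smallest possible). A share is bound to the other shares, so this largely restates the fall of TNFRSF17. The shares that were larger in siIRF4 were those of TNFRSF13B in the MM1 lines, from 32.2% to 41.8% in MM1R and from 29.3% to 39.5% in MM1S, and TNFRSF13C in the KMS-12 lines, from 4.39% to 15.1% (KMS-12-BM) and from 1.36% to 16.9% (KMS-12-PE). Neither gene was called higher in those lines: TNFRSF13B means were 406.5 and 379.5 TPM in MM1R and 202.6 and 156.6 TPM in MM1S, and TNFRSF13C was not called in any line.

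**Figure D4:**
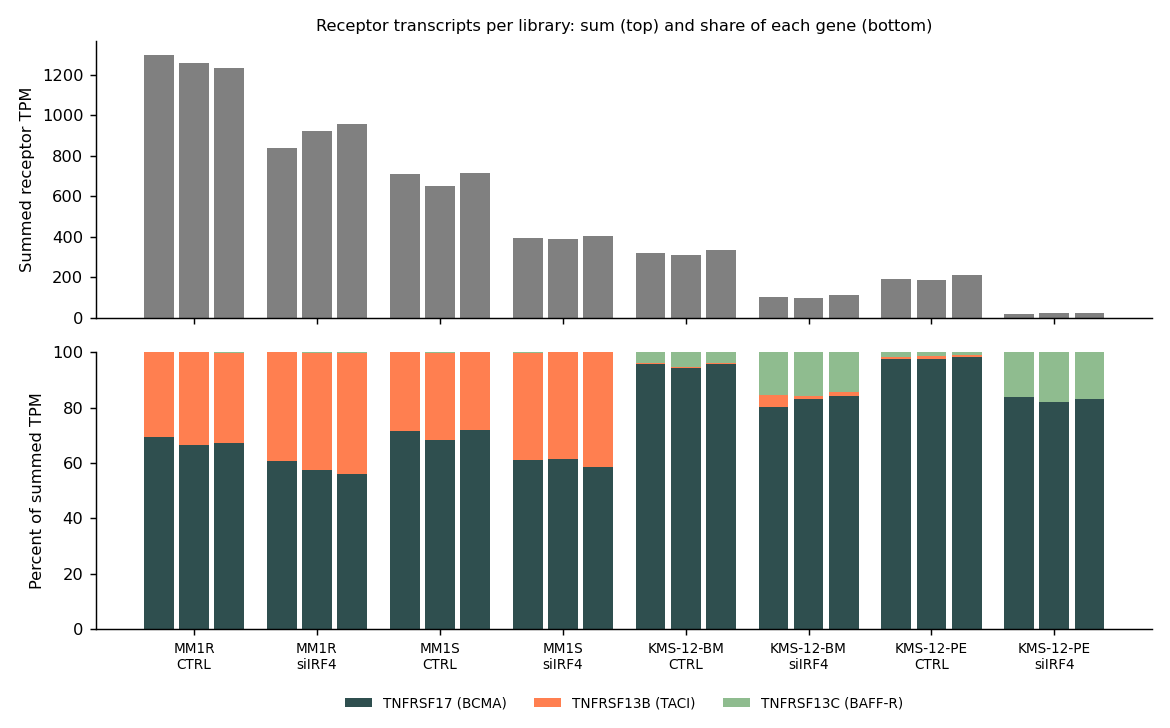
Sum of the 3 receptor transcripts in TPM (top, vertical axis) and the percent of it from each receptor (bottom, vertical axis) in each of 24 libraries, grouped by line and condition on the horizontal axis. TNFRSF17 is the largest part everywhere, and its share is lower in siIRF4 than in CTRL in each line, from 97.8% to 83.0% in KMS-12-PE.

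APRIL was the more abundant ligand. TNFSF13 was 6.44, 7.55 and 8.02 TPM in MM1R CTRL and 10.2, 8.97 and 9.60 TPM in siIRF4, and 5.08, 5.24 and 4.26 TPM in MM1S CTRL against 7.19, 6.52 and 7.13 TPM in siIRF4. In KMS-12-PE it was 1.36, 1.45 and 1.95 TPM against 2.98, 2.22 and 2.42 TPM. All siIRF4 libraries of these 3 lines were above all CTRL libraries of the line. In KMS-12-BM it was 1.07, 1.02 and 0.850 TPM against 1.36, 0.992 and 0.959 TPM, and the groups overlapped. TNFSF13 rose by 0.35 ± 0.10 in MM1R, 0.44 ± 0.10 in MM1S and 0.45 ± 0.10 in KMS-12-PE (SE; limma, adjusted p = 0.00896, 0.00118 and 0.00156), which is 1.31, 1.43 and 1.6 times the CTRL mean. The MM1R call was lost without CTRL replicate 1 (0.27; limma, adjusted p = 0.0615). In KMS-12-BM the change was 0.086 with an interval of -0.13 to 0.30 (limma, adjusted p = 0.644). The difference between the KMS-12 lines, -0.37, was not called (limma, adjusted p = 0.0773). On average TNFSF13 rose by 0.33 ± 0.052 (SE; limma, adjusted p = 1.13e-05; exact permutation within lines p = 7.50e-05), higher in 4 of 4 lines.

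TNFSF13 adjoins TNFSF12, the TWEAK gene, with which it can be read through into 1 transcript. The readthrough TNFSF12-TNFSF13 is listed at 0 in all 24 libraries. TNFSF12 itself was at most 1.25 TPM and was below the filter, so it was not tested. Whether the deposited counting kept reads shared by the readthrough and TNFSF13 is not given in the sources used here. TNFRSF17 overlaps in position with NPIPB2, a gene on the other strand that has no row in the table. Strand use in the counting is also not given, and whether exons of the 2 genes overlap was not examined. Reads from the 2 might therefore not be told apart.

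BAFF was rare in these cells. TNFSF13B was 0.288, 0.545 and 0.568 TPM in MM1S CTRL (8, 11 and 15 reads) and 1.07, 1.003 and 0.979 TPM in siIRF4 (24 reads in each). It was 0.596, 0.313 and 0.988 TPM in MM1R CTRL and 1.33, 1.34 and 0.605 TPM in siIRF4. The MM1S groups did not overlap and the MM1R groups did, through siIRF4 replicate 3. In KMS-12-PE it was 0.281, 0.576 and 0.672 TPM against 0.656, 0.742 and 0.788 TPM, and in KMS-12-BM 0.079, 0.208 and 0.035 TPM against 0.232, 0.534 and 0.039 TPM, with an overlap in both. TNFSF13B rose by 0.46 ± 0.16 in MM1S (SE; limma, adjusted p = 0.0204). That call was lost without CTRL replicate 1 (adjusted p = 0.0945), without siIRF4 replicate 1 (adjusted p = 0.0536), and with a pseudocount of 0.1 TPM (limma, adjusted p = 0.0786). The changes in the other 3 lines, MM1R first and KMS-12-PE last, were 0.36, 0.18 and 0.20 (limma, adjusted p = 0.0774, 0.503 and 0.357), and in MM1R the call was gained without CTRL replicate 3 (limma, adjusted p = 0.0193) or siIRF4 replicate 3 (0.0103). On average TNFSF13B rose by 0.30 ± 0.080 (SE; limma, adjusted p = 0.00283; exact permutation within lines p = 0.00214), higher in 4 of 4 lines. No CTRL library reached the 1 TPM of the filter, so this gene was tested only because of siIRF4 libraries, which favours a rise.

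In CTRL, TNFSF13 means descended from MM1R (7.33 ± 0.81 TPM) through MM1S (4.86 ± 0.52 TPM) and KMS-12-PE (1.59 ± 0.32 TPM) to KMS-12-BM (0.978 ± 0.11 TPM; SD, n = 3), and all 6 pairs were called. TNFSF13B was 0.632 TPM in MM1R, 0.510 TPM in KMS-12-PE, 0.467 TPM in MM1S and 0.107 TPM in KMS-12-BM, which was called below each of the other 3 lines, while those 3 were not called apart from each other. The calls of KMS-12-BM against MM1S and KMS-12-PE were lost when some single libraries were left out, with limma adjusted p up to 0.0807 and 0.0746. Between the CTRL groups 3 of 5 genes were called for MM1R against MM1S, 5 for MM1R against KMS-12-BM, 4 for MM1R against KMS-12-PE, 5 for MM1S against KMS-12-BM, 4 for MM1S against KMS-12-PE and 4 for KMS-12-BM against KMS-12-PE. Of all genes 57.3%, 81.5%, 81.9%, 83.5%, 79.3% and 77.3% were called in these comparisons, so most genes differed between lines.

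Genes around the receptors were taken from lists of the pathway. Among all 15113 genes tested, 5005 were called higher and 4009 lower on average, with a median change of 0.024. Of 10 receptor adapters and regulators of NIK 8 were called higher and 1 lower, with a median of 0.19. TRAF5, an adapter of these receptors, rose by 0.88 ± 0.030 (SE; limma, adjusted p = 1.91e-15) and was called higher in each line, from 26.1 to 47.1 TPM in MM1R, 26.2 to 54.4 TPM in MM1S, 4.12 to 7.18 TPM in KMS-12-BM and 5.57 to 12.2 TPM in KMS-12-PE. TRAF1, an adapter induced by NF-kB, rose by 0.55 (limma, adjusted p = 6.46e-08), again in each line. MAP3K14, which encodes NIK, was the gene called lower, by 0.091 (limma, adjusted p = 0.0168), and by line it was called in KMS-12-BM, at -0.33. TRAF3, which holds NIK low, rose by 0.12 on average (limma, adjusted p = 7.37e-04), with calls in the MM1 lines (0.21 and 0.28).

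Of the 5 NF-kB subunits 3 were called higher on average, with a list median of 0.087. REL rose by 0.59 (limma, adjusted p = 2.70e-09) and in each line. RELB, the partner of the NIK-dependent arm, rose by 0.19 on average (limma, adjusted p = 1.62e-06), and by line it was called in KMS-12-PE, at 0.68. NFKB2, which NIK signalling processes, had an average change of 0.039 (limma, adjusted p = 0.308). Of 4 survival genes downstream (median 0.15) 3 were called higher: BCL2A1 by 0.46, MCL1 by 0.21 and BCL2L1 by 0.099 (limma, adjusted p = 4.43e-04, 1.32e-06 and 6.40e-04). By line all 3 were called in the MM1 lines only: BCL2A1 at 0.71 and 0.93, MCL1 at 0.36 and 0.34 and BCL2L1 at 0.19 and 0.13 in MM1R and MM1S. The values in the KMS-12 lines, BM before PE, were 0.32 and -0.097 for BCL2A1, 0.041 and 0.081 for MCL1 and 0.11 and -0.031 for BCL2L1, none called. BCL2 averaged -0.0023 (limma, adjusted p = 0.949), with calls higher in both MM1 lines (0.17 and 0.27) and lower in both KMS-12 lines (-0.24 and -0.21).

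Of 8 genes for receptor shedding and ligand processing 4 were called higher and 1 lower, with a median of 0.040. The gamma-secretase genes NCSTN, APH1A and APH1B rose by 0.16, 0.058 and 0.28 (limma, adjusted p = 1.14e-05, 0.00485 and 3.41e-05). PSEN2, a catalytic subunit of the complex, was called higher in MM1R and MM1S (0.31 and 0.47) and lower in both KMS-12 lines (-0.39 and -0.43). FURIN, a protease that matures APRIL and BAFF, rose by 0.18 on average (limma, adjusted p = 3.79e-04), with calls in MM1R and MM1S. ADAM10, a sheddase, was the gene called lower, by 0.098 (limma, adjusted p = 9.78e-04).

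APRIL also binds heparan sulfate, and of 10 genes for such proteoglycans and their synthesis 3 were called higher and 5 lower on average, with a median of -0.047. SDC1, the syndecan CD138 that carries these chains on plasma cells, fell by 0.18 (limma, adjusted p = 0.0429). Its mean went from 737.6 to 564.9 TPM in MM1R, the line in which it was called. SDC2 rose by 0.49 (limma, adjusted p = 1.23e-08), with calls higher in MM1R and MM1S and lower in KMS-12-PE, at levels of at most 9.25 TPM.

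**Figure D5:**
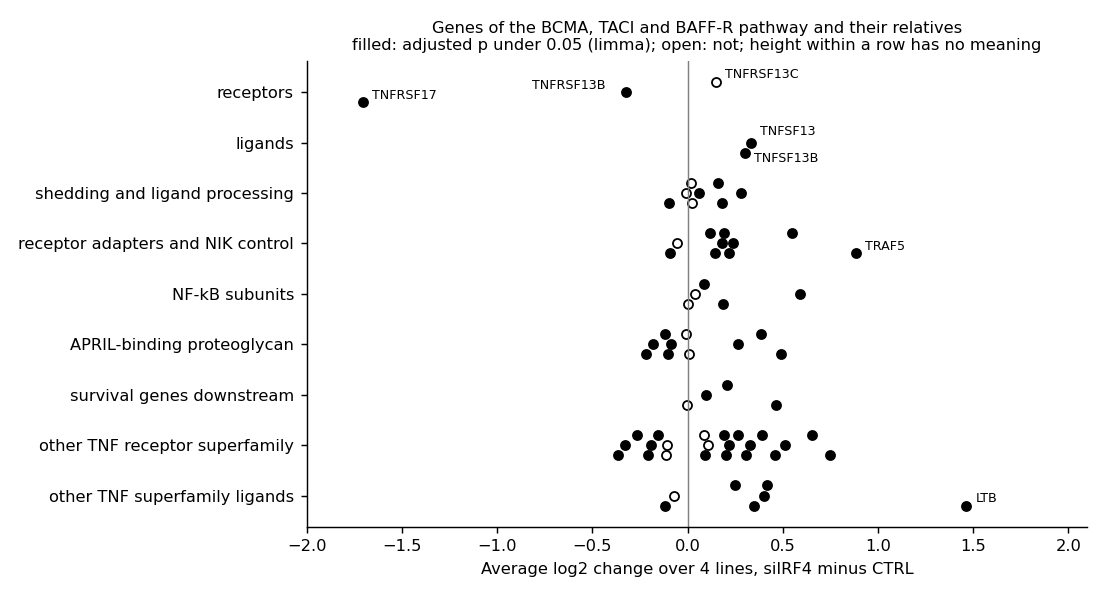
Average log2 change over 4 lines, siIRF4 minus CTRL, on the horizontal axis for each tested gene of the receptors, ligands, pathway lists and other TNF superfamily genes, by list on the vertical axis; filled points were called and open points were not. TNFRSF17 lies farthest to the left at -1.71 and LTB farthest to the right at 1.46.

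Among relatives of these genes, 12 of 22 other TNF receptors tested were called higher on average and 6 lower, with a median of 0.15. TNFRSF10D, a decoy receptor for TRAIL, rose by 0.75, TNFRSF18 (GITR) by 0.66, CD40 by 0.51, TNFRSF10B, a death receptor for TRAIL, by 0.46 and TNFRSF25 by 0.39 (limma, adjusted p = 3.44e-10, 1.72e-06, 2.44e-08, 3.06e-11 and 5.14e-05). These averages differ by line. TNFRSF18 was called in KMS-12-PE, at 1.59, and was 0.26 to 0.46 in the other 3 lines. CD40 was called higher in MM1R (1.25), MM1S (0.66) and KMS-12-BM (0.35) and was -0.21 in KMS-12-PE, not called. TNFRSF10D and TNFRSF10B were called in each line but KMS-12-BM, and TNFRSF25 in MM1S and KMS-12-PE. Of 7 other ligands tested 5 were called higher and 1 lower, with a median of 0.35. LTB, the lymphotoxin beta gene, rose by 1.46 (limma, adjusted p = 1.36e-15), with means of 38.4 and 87.6 TPM in KMS-12-BM; in KMS-12-PE they were 4.04 and 21.6 TPM. TNFSF14, LTA, TNFSF10 (TRAIL) and EDA rose by 0.42, 0.40, 0.35 and 0.25, and CD70 fell by 0.12 on average (limma, adjusted p = 2.70e-05, 2.86e-08, 5.73e-09, 4.31e-05 and 8.04e-04). By line TNFSF14 was called in MM1R and KMS-12-PE, LTA in each line but MM1S, TNFSF10 in each line but KMS-12-PE and EDA in the MM1 lines. CD70 was called lower in the MM1 lines (-0.50 and -0.67) and higher in the KMS-12 lines (0.23 and 0.46).

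Patterns most like those of TNFRSF17 and TNFRSF13B, the members with a mean of at least 5 TPM over all libraries, were sought among 10126 genes by Pearson's r of log2(TPM + 1) over 24 libraries, which share lines and treatment. For TNFRSF17 these were ZNF275 (r = 0.961), CALR (0.941), NOMO1 (0.925), KIAA1467 (0.924) and RRP12 (0.921). With the mean of each line subtracted they were ELL2 (0.988), PDIA6 (0.986), DNAJB11 (0.985), AMPD1 (0.985) and CCR2 (0.981). ELL2 is an elongation factor of immunoglobulin secretion, PDIA6 and DNAJB11 are folding factors of the endoplasmic reticulum, and AMPD1, lower in both KMS-12 lines as given above, went from 24.2 to 13.0 TPM in MM1R. The others moved less in MM1R: ELL2 went from 23.4 to 19.5 TPM, PDIA6 from 369.3 to 348.4 TPM and DNAJB11 from 398.2 to 373.1 TPM. CCR2 went from 8.876 to 7.655 TPM there and CALR from 2315 to 2340 TPM. A high r therefore did not mean a fall of the same size. For TNFRSF13B the genes most alike over 24 libraries were ZNF512B (0.996), CCND2 (0.995), DUSP4 (0.995), CCNL1 (0.995) and NPNT (0.994), and CCND2 was 255.9 TPM in MM1R CTRL but 0.593 TPM in KMS-12-BM CTRL.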

How the data were processed

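Total RNA was made into libraries with a NEBNext Ultra II kit, per the labels' protocols. The authors deposited 1 table of TPM values; FastQC, MultiQC, STAR, featureCounts and hg19 are named in the submitters' processing notes, while their versions, strand use and the annotation were not given in the sources used here. From it, 28 rows whose symbols had become dates were left out, which leaves 25342 genes. Samples were grouped by their labels.

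Changes were fitted with limma 3.58.1 in R 4.3.3 on log2(TPM + 1), for 15113 genes with at least 1 TPM in at least 3 libraries, as 8 group means over 24 libraries (16 residual degrees of freedom, trended and robust), with Benjamini-Hochberg adjustment within a comparison. Exact permutations exchanged labels within lines. Whole reads were recovered (tolerance 0.02 reads) for 20484 of 20484 genes with a value in at least 6 libraries, 100% of them, and hold at least 99.96% of the TPM of each library; intervals cover counting error only. The fit was tested on simulated data. Alternatives were the pseudocount, filters, median-of-ratios scaling, voom on recovered reads, no trend, a fit per line, leaving out each library, and a replicate block.

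Members and lists were chosen with earlier results of these data known; 2 genes of the lists are not reported here and are left out of their counts. Named were the 5 members, IRF4, neighbours of TNFSF13, genes of lists of up to 10, of the longer lists up to 5 with the largest average change among those called, and the 5 most alike by r. CD70 was named after its values were seen, as the only ligand called lower. ITGB7 belongs to the genes high in the MM1 lines.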

Additional observations from a re-analysis of the deposited data

Results flagged for a closer look

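The following changes differed between lines by a test of the difference itself (limma, interaction). The fall of TNFRSF17 was larger in KMS-12-PE than in KMS-12-BM by 1.42 on the log2 scale, larger in the KMS-12 lines than in the MM1 lines by 1.68, and larger in KMS-12-BM than in MM1S by 0.81. The change of TNFRSF13B was higher in KMS-12-BM than in KMS-12-PE by 1.88, and the change in MM1S minus that in KMS-12-BM was -0.90; both rest on few reads in the KMS-12 lines, and the part of the other MM1-line genes that moved with TNFRSF13B was not tested. The comparison of MM1S with KMS-12-BM was added after the values were seen.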

How the results depend on the processing

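TNFRSF17 kept its direction and its call in each line and on average under every alternative run. With single libraries left out its change ran from -0.72 to -0.66 in MM1R, -1.10 to -0.99 in MM1S, -1.92 to -1.79 in KMS-12-BM, -3.30 to -3.20 in KMS-12-PE and -1.73 to -1.69 on average, and its share of the receptor sum changed by -12.2 to -11.6 points. Its average over the MM1 lines alone was -0.87. Under both averages added later, without KMS-12-PE and of the MM1 lines, 1 member was called lower in place of 2. The share of all genes called under these averages is not given here. TNFRSF13B then averaged 0.017 without KMS-12-PE and -0.24 in the MM1 lines, and TNFRSF13C averaged -0.0064 in the MM1 lines.

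Of the changes whose sign turned, the TNFRSF13B average was called over 4 lines; the others were not called. TNFSF13B in KMS-12-BM minus KMS-12-PE was 0.16 with a pseudocount of 0.1 and 0.26 with voom, and TNFRSF13C in MM1S minus KMS-12-BM was 0.039 with voom. With single libraries left out TNFRSF13C ran from -0.21 to 0.21 in MM1R, -0.17 to 0.22 in MM1S, -0.26 to 0.18 for MM1R minus MM1S and -0.31 to 0.067 for MM1S minus KMS-12-BM. TNFSF13 in KMS-12-BM ran from -4.4e-04 to 0.13. TNFSF13B ran from -0.26 to 0.071 for the effect in MM1R minus MM1S, -0.17 to 0.11 for KMS-12-BM minus KMS-12-PE, and between CTRL groups from -0.014 to 0.29 (MM1R minus MM1S), -0.052 to 0.25 (MM1R minus KMS-12-PE) and -0.15 to 0.053 (MM1S minus KMS-12-PE). The cause was not tested. The TNFRSF17 difference between MM1R and MM1S was called with a filter of a mean of 5 TPM (adjusted p = 0.0492), with voom (0.00635), in the 12 MM1 libraries (0.0332) and without MM1S CTRL replicate 2 (0.0260). TNFRSF13B in the MM1 lines minus the KMS-12 lines was called with a pseudocount of 0.1 (1.30), with voom (1.75) and without KMS-12-BM siIRF4 replicate 1 (0.37).

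Same-numbered replicates did not deviate together (r from -0.088 to 0.086), so no sign of pairing by number was seen. This cannot show that same-numbered libraries were handled apart. With the replicate block TNFRSF17 averaged -1.71 (limma, adjusted p = 1.19e-12). As without the block, 2 members were called higher and 2 lower on average, beside 4920 higher and 3912 lower among all 15113 genes. Median-of-ratios scaling moved the median of all genes by less than 0.1, but the share of higher calls in KMS-12-BM from 65.3% to 48.4%. Few reads limit TNFRSF13C in the MM1 lines, TNFRSF13B in the KMS-12 lines and TNFSF13B throughout.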
